A study of Mus musculus with 9 samples.

Results

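The glutathione transferases described here are 9 mouse genes, Gsta3, Gsta4, Gstm1, Gstm2, Gstp1, Gstt1, Gsto1, Mgst1 and Mgst3, measured in white adipose tissue on 9 Clariom S arrays. They were chosen by gene symbol in the platform annotation, and each has exactly 1 transcript cluster, so they stand for 9 of the 19505 genes and 9 of the 19572 named clusters on the arrays. All 9 clusters entered every test, and no member was removed by a filter on dim signals.

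The arrays fall into 3 groups of 3 male mice. The VE group holds leptin-deficient C57BL/6JHamSlc-ob/ob mice that received VE, a rice bean (Vigna umbellata) extract, by oral gavage at 100 mg/kg. The ob/ob vehicle group holds mice of the same obese strain on vehicle, and the wild type group holds lean C57BL/6JHamSlc-+/+ mice on vehicle. Mice were obtained at 6 weeks of age, every group ate standard chow, and dosing lasted 6 weeks. The obese mice lack leptin from birth, so they model leptin deficiency and not diet, and the fat depot was not stated.

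Values are log2 signals normalised by the submitters, so a difference of 1 is a 2-fold difference in signal. Array medians lay between 6.11 and 6.26. All 14 measured adipocyte markers stood above the array median on every array, led by Fabp4, Lpl and Adipoq. The arrays differed in other cell types. Summed signals (on the log2 scale) of 15 measured macrophage markers, led by Lyz2, Mmp12 and Ctss, reached 19.73 to 20.16 in VE mice and 19.67 to 20.42 in ob/ob vehicle mice, against 13.45 to 15.38 in wild type mice. Epithelial markers, led by Prom1, Cdh1 and Krt8, were high in wild type mice alone, at a summed 13.38 to 16.21, against 8.68 to 9.54 in VE mice and 9.05 to 9.13 in ob/ob vehicle mice. Wild type array 2 also carried the epididymal gene Adam7 at 17.10. The first principal component, with 59.2% of the variance, set the wild type arrays (62.49 to 130.5) apart from both ob/ob groups (-58.44 to -38.44). In whole tissue, fewer cells of a type and less RNA per cell cannot be told apart.

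Glutathione transferases join the thiol of glutathione to reactive, electron-poor compounds, among them the aldehydes and epoxides that arise when lipids are oxidised, and the conjugates are then exported from the cell. The soluble enzymes form classes named alpha (Gsta3, Gsta4), mu (Gstm1, Gstm2), pi (Gstp1), theta (Gstt1) and omega (Gsto1), while Mgst1 and Mgst3 belong to a separate family of membrane proteins. Many family members are induced by the transcription factor NRF2 through the antioxidant response element, and Gsta4 in mouse fat cells is known for removing 4-hydroxynonenal, a lipid aldehyde that otherwise modifies proteins.

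Promoter sequence was read for the members from RefSeq windows of assembly GRCm38.p6 that run from 250 bases before to 50 bases after a listed start site. 8 of the 9 members matched, with 10 windows, and Gsta4 was not matched. The core of the antioxidant response element, TGACNNNGC, was searched on both strands, and it occurred in the windows of 2 members, Gsta3 and Mgst1. Among all 32851 windows of the same length 12.4% hold it. 4 of the windows are printed on the gene's own strand: those of the 2 members with a match, which is in capitals, and those of Gsto1 and Gstm1, whose signals differed between ob/ob and wild type mice. The Gsta3 window lies on chromosome 1 (GRCm38.p6, chr1:21240335-21240634, plus strand), the Mgst1 window, that of the upstream of 2 listed starts, on chromosome 6 (chr6:138140277-138140576, plus strand), the Gsto1 window on chromosome 19 (chr19:47854723-47855022, plus strand) and the Gstm1 window, that of the downstream of 2 listed starts, on chromosome 3 (chr3:108017769-108018068, minus strand).
Gsta3: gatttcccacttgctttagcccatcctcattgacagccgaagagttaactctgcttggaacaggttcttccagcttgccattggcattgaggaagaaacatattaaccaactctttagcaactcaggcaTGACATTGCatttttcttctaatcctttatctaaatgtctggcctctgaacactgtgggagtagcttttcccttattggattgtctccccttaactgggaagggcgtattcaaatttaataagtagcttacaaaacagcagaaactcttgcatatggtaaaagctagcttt
Mgst1: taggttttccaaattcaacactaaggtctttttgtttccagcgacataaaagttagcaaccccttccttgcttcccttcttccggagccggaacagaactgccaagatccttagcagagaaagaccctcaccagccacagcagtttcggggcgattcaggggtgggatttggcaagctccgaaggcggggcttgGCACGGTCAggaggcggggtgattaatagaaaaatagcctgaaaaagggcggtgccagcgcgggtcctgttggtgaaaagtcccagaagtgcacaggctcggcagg
Gsto1: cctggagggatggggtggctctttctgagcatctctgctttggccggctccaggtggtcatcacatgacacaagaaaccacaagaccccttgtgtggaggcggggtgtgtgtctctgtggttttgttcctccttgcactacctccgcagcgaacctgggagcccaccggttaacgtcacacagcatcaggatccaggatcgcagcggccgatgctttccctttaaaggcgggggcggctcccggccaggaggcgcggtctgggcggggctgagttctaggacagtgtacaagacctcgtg
Gstm1: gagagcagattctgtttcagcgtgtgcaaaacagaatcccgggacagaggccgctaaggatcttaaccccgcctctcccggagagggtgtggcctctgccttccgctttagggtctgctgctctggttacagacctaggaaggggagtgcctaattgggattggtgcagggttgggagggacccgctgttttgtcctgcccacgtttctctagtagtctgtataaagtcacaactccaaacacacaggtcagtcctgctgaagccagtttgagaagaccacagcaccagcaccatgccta
In Gsta3 the match reads TGACATTGC and sits 112 bases before the start, and 0.155% of all windows hold these exact letters. The letters were taken from the match itself, and any exact form is held by no more windows than the open core (12.4%). The small share therefore does not set this match apart. In Mgst1 it lies 47 bases before the start on the opposite strand, where it reads TGACCGTGC and appears in print as GCACGGTCA. The windows of Gsto1 and Gstm1 hold no match to these letters. The AP-1 motif TGACTCA, which can overlap the searched core, was found in 5.2% of all windows and once in that of Gstp1.

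Against wild type mice, ob/ob vehicle mice had less Gsta4 and more Gsto1 and Gstm1 signal, and the other 6 members did not pass the test. The test was limma's moderated test on 3 group means over all 9 arrays, with adjusted p under 0.05 over all named clusters as the call. 3 of 9 members were called, 2 higher and 1 lower, while 14.1% of all clusters were called, 9.02% as higher and 5.05% as lower. Arrays of the 2 groups did not overlap for the same 3 members, 2 of them higher and 1 lower, and for 28.9% of all clusters (15.7% higher, 13.1% lower). At the submitters' threshold, an unadjusted p under 0.05 with a fold over 1.1, 4 members passed, Gstm2 being the addition, and 28.4% of all clusters did. The members' median difference was -0.43, and that of all clusters was -0.037. The members did not share a direction, and 3 of 9 differences lay above 0. All 15 measured macrophage markers were called higher (median difference 4.75) and 14 of 16 epithelial markers lower (median -3.63) between the same groups, and their part in the differences of the members and of the genes of the lists was not tested.

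**Figure D1:**
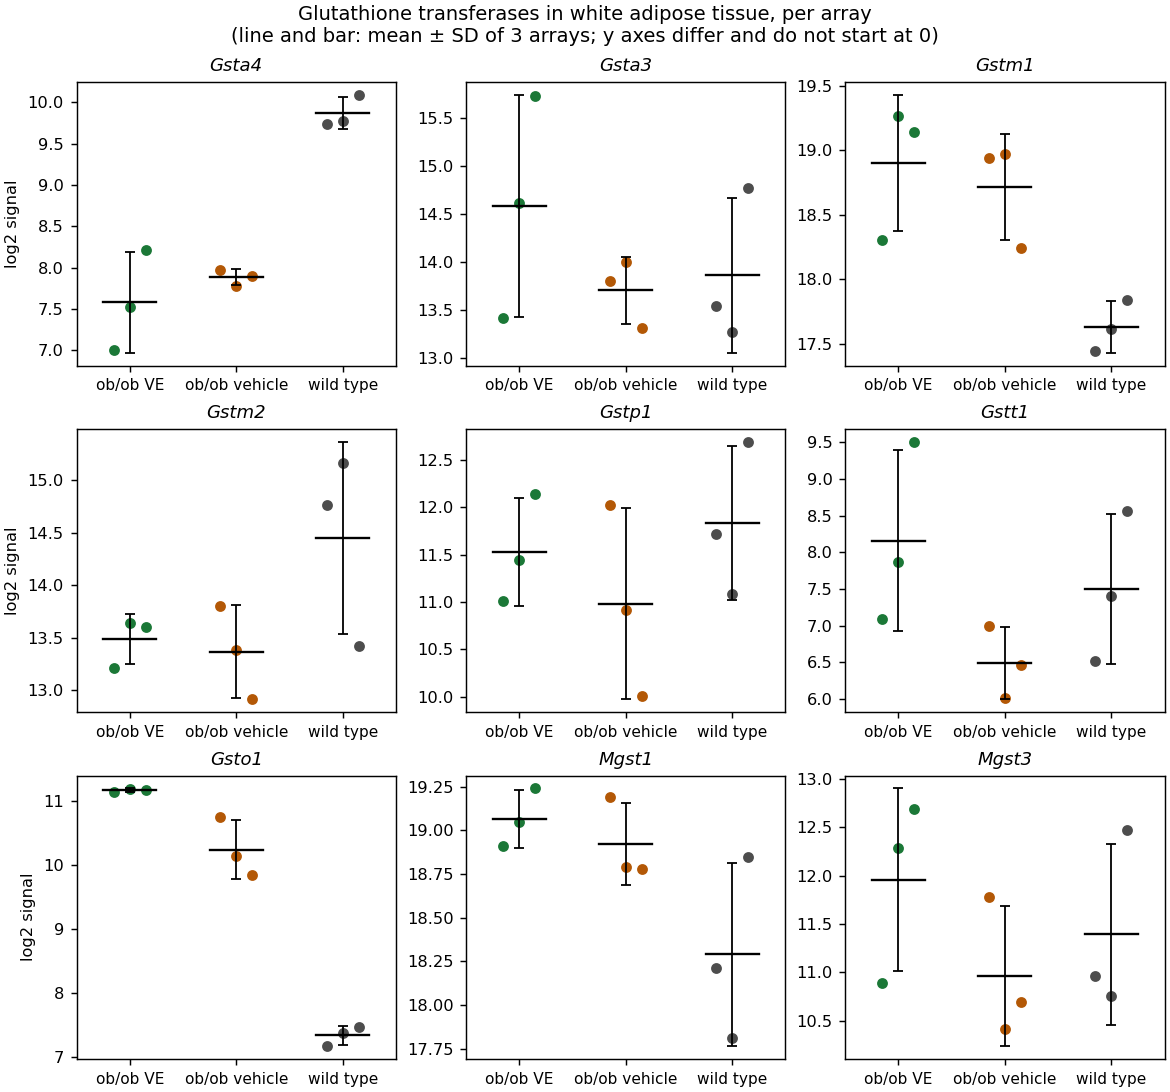
Log2 signal of the 9 members (vertical axes, one panel per gene, not starting at 0) on each array of the VE, ob/ob vehicle and wild type groups; points are arrays, and lines with bars are the mean ± SD of 3 arrays. Gsta4 sits at 9.74 or above in wild type mice and at 8.21 or below in both ob/ob groups, while Gsto1 sits at 7.47 or below in wild type mice and at 9.84 or above in both ob/ob groups.

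Gsta4, the alpha class enzyme with high activity towards 4-hydroxynonenal, gave 7.00, 7.53 and 8.21 in VE mice, 7.97, 7.78 and 7.90 in ob/ob vehicle mice, and 9.74, 9.77 and 10.09 in wild type mice. Every ob/ob array, treated or not, lay below every wild type array. The ob/ob vehicle signal stood below the wild type signal by a log2 difference of -1.98 ± 0.30 (SE, n = 3 arrays per group), a 3.95-fold lower signal, with an adjusted p of 0.00196 in limma. Group means were 7.58 ± 0.61 in VE mice, 7.88 ± 0.096 in ob/ob vehicle mice and 9.87 ± 0.19 in wild type mice (SD, n = 3 each), and the 2 ob/ob means did not differ beyond their spread. Adjusted p over all 20 alternatives ran between 0.00111 and 0.0125. One of them leaves wild type array 3 alone (-2.21), takes the spread from the other groups, and keeps an array whose summed epithelial signal was 13.38.

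Gsto1, the omega class enzyme, has a cysteine in its active site and reduces dehydroascorbate and protein-bound glutathione rather than conjugating electrophiles, and in mouse macrophages it is known to take part in inflammatory signalling. Its signals were 11.14, 11.19 and 11.17 in VE mice, 10.74, 10.13 and 9.84 in ob/ob vehicle mice, and 7.17, 7.37 and 7.47 in wild type mice. The 3 groups did not overlap anywhere, with VE mice at the top and wild type mice at the bottom. Between ob/ob vehicle and wild type mice the difference was 2.90 ± 0.26 (SE), a 7.46-fold higher signal, with an adjusted p of 8.58e-05 in limma. The macrophage markers had the same direction. Array signals have no zero, and 10 of the 15 markers stood above the array median on every wild type array too.

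Gstm1, a mu class enzyme of the cytosol, gave 18.30, 19.27 and 19.14 in VE mice, 18.94, 18.97 and 18.24 in ob/ob vehicle mice, and 17.44, 17.61 and 17.84 in wild type mice. Here too both ob/ob groups lay above all wild type arrays, but by a smaller margin. The difference between ob/ob vehicle and wild type mice was 1.09 ± 0.32 (SE), a 2.12-fold higher signal, with an adjusted p of 0.0469, just inside the threshold. This call was lost in 12 of 20 alternative settings, with adjusted p between 0.032 and 0.272 over all of them and a difference between 0.88 and 1.33. Leaving out 1 array ended it for ob/ob vehicle array 1 (adjusted p 0.134) or 2 (0.158), wild type array 1 (0.114) or 2 (0.0889), and VE array 2 (0.0596) or 3 (0.0652).

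Gstm2, the neighbour of Gstm1 on chromosome 3, did not share its direction. It gave 13.21, 13.64 and 13.60 in VE mice, 13.80, 13.38 and 12.91 in ob/ob vehicle mice, and 14.77, 15.17 and 13.42 in wild type mice. Wild type arrays 1 and 2 stood apart from all others, while wild type array 3 lay within the ob/ob range. The ob/ob vehicle minus wild type difference of -1.09 ± 0.43 (SE) did not pass (adjusted p 0.123). Without wild type array 3 it was -1.61 with an adjusted p of 0.00563, and with wild type arrays 1 and 2 left out it was -0.057, so the value depended on which wild type arrays were used; adjusted p over the alternatives ran between 0.00563 and 0.956.

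Mgst1, a membrane enzyme of the endoplasmic reticulum and the outer mitochondrial membrane that also reduces lipid hydroperoxides, gave 18.91, 19.05 and 19.24 in VE mice, 19.19, 18.79 and 18.78 in ob/ob vehicle mice, and 18.21, 17.81 and 18.85 in wild type mice. Wild type array 3 lay within the range of the ob/ob vehicle arrays and the other two lay below it. The difference between ob/ob vehicle and wild type mice was 0.63 ± 0.29 (SE) with a 95% interval from -0.01 to 1.27 and an adjusted p of 0.184. It passed only where wild type array 3 was left out (0.91, adjusted p 0.0389; 0.0389 to 0.929 over the alternatives).

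The remaining 4 members overlapped between ob/ob vehicle and wild type mice. Gsta3, an alpha class enzyme known in the mouse for detoxifying the aflatoxin epoxide, gave 13.42, 14.62 and 15.73 in VE mice, 13.80, 14.00 and 13.32 in ob/ob vehicle mice, and 13.54, 13.27 and 14.78 in wild type mice. Gstt1, a theta class enzyme that acts on small halogenated compounds, gave 7.09, 7.87 and 9.51 in VE mice, 7.00, 6.01 and 6.46 in ob/ob vehicle mice, and 6.52, 7.41 and 8.57 in wild type mice. For both genes array 3 was the highest of its group in VE and in wild type mice. Mgst3, a membrane enzyme with glutathione-dependent peroxidase activity, gave 10.89, 12.29 and 12.69 in VE mice, 11.78, 10.41 and 10.69 in ob/ob vehicle mice, and 10.96, 10.75 and 12.47 in wild type mice. Gstp1, the pi class enzyme, which also binds the stress kinase JNK, gave 11.01, 11.44 and 12.14 in VE mice, 12.02, 10.91 and 10.01 in ob/ob vehicle mice, and 11.72, 11.08 and 12.69 in wild type mice. Mgst3 and Gstp1 again had their highest VE and highest wild type value on array 3, and their highest ob/ob vehicle value on array 1. The ob/ob vehicle minus wild type differences were -0.16 for Gsta3, -1.01 for Gstt1, -0.43 for Mgst3 and -0.85 for Gstp1. Their adjusted p-values ran between 0.35 and 0.892, and the 95% intervals reached as far as -2.44 to 0.42 for Gstt1 and -1.41 to 1.09 for Gsta3, which is wider than a 2-fold change in either gene's signal.

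Between VE and ob/ob vehicle mice no member passed the test, and neither did nearly all other genes: 0 of 9 members and 0.0255% of all clusters were called. At the submitters' threshold 2 of the 9 members, Gsto1 and Gstt1, passed with higher signal in VE mice, and 4.56% of all clusters passed. Differences of 8 of the 9 members (88.9%) lay above 0, against 46.7% of all clusters, with a member median of 0.55 against -0.023. Those 8 genes share the same 6 arrays and are not independent measurements.

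Gsto1 was the member with the narrowest VE group, spanning 0.05 on the log2 scale. Mean signals were 11.17 ± 0.025 in VE mice and 10.24 ± 0.46 in ob/ob vehicle mice (SD, n = 3 each), a difference of 0.93 ± 0.26 (SE) with a 95% interval from 0.35 to 1.51. All 3 VE arrays exceeded all 3 ob/ob vehicle arrays, the unadjusted p was 0.00481 and the adjusted p was 0.637. In all clusters, 12.6% kept these groups apart in either direction, 5.77% with VE higher and 6.79% with VE lower, against 2 of 9 members, both higher. The macrophage markers had a median difference of 0.12 between these groups. Of them 0 of 15 were called, beside 0.0255% of all clusters, so this count carries little information. Their part in the Gsto1 difference was not tested.

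Gstt1 averaged 8.16 ± 1.24 in VE mice and 6.49 ± 0.50 in ob/ob vehicle mice, and its arrays did not overlap either. The difference of 1.67 ± 0.64 (SE), a 3.17-fold higher signal, had a 95% interval from 0.24 to 3.10, an unadjusted p of 0.0265 and an adjusted p of 0.993. It was 0.99 without VE array 3 and 2.20 without VE array 1. The gap between the groups was small beside the spread within VE mice, since the lowest VE array was at 7.09 and the highest ob/ob vehicle array at 7.00.

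For the other 7 members the intervals of the VE minus ob/ob vehicle difference spanned 0. They ran between -0.37 and 2.13 for Gsta3 and between -0.30 and 2.30 for Mgst3. Gsta4, which was low in ob/ob vehicle mice, had a difference of -0.30 with an interval from -0.97 to 0.37, so a return of its signal by more than 0.37 towards the wild type level lies outside that interval. Gstm1 (0.19, from -0.52 to 0.89), Mgst1 (0.15, from -0.49 to 0.79) and Gstm2 (0.12, from -0.83 to 1.07) had intervals that leave room for changes in either direction. Gstp1 differed by 0.55, with an interval from -0.67 to 1.77.

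**Figure D2:**
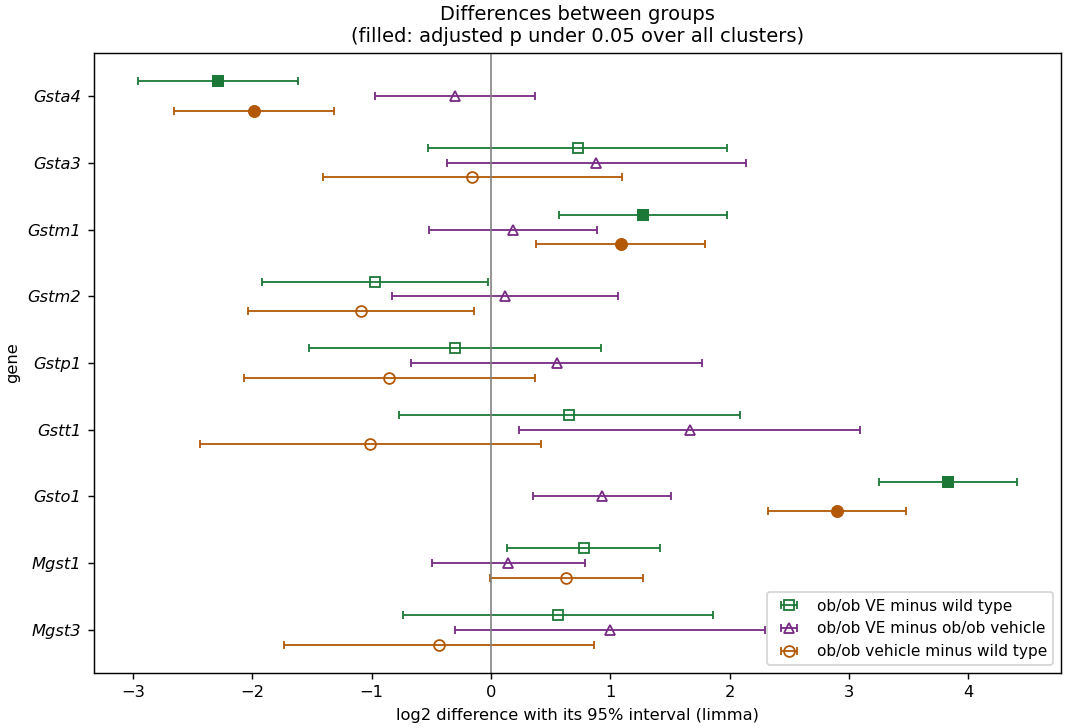
Log2 differences of the 9 members (horizontal axis) in 3 comparisons, with bars for limma's 95% interval; filled symbols have an adjusted p under 0.05 over all named clusters. Gsta4, Gstm1 and Gsto1 are filled in both comparisons with wild type mice, and no symbol is filled between VE and ob/ob vehicle mice.

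The comparison of VE with wild type mice uses the same wild type arrays as that of ob/ob vehicle mice, so the 2 sets of values are not independent. Again 3 of 9 members were called, 2 higher and 1 lower, and 20.0% of all clusters were, 12.4% higher and 7.58% lower. Arrays did not overlap for 4 of 9 members, 3 higher and 1 lower, and for 37.2% of all clusters (19.5% higher, 17.7% lower). The submitters' threshold passed 5 members, Gstm2 and Mgst1 being the additions, and 33.9% of all clusters. Gsta4 was 4.88-fold lower in VE than in wild type mice (log2 difference -2.29 ± 0.30, adjusted p 0.000735), against a difference of -1.98 for ob/ob vehicle mice. Gsto1 was 14.2-fold higher (3.83 ± 0.26, adjusted p 2.06e-05), beside 2.90 in ob/ob vehicle mice, and Gstm1 was 2.42-fold higher (1.27 ± 0.32, adjusted p 0.0192), beside 1.09. All 3 VE arrays lay on the same side of the wild type arrays for each of these genes. Mgst1 was higher on all 3 VE arrays than on any wild type array, with a difference of 0.78 that did not pass (adjusted p 0.0856). Without wild type array 3, Mgst1 (1.06, adjusted p 0.0166) and Gstm2 (-1.49, adjusted p 0.00731) passed as well, with ranges over the alternatives between 0.0166 and 0.727 for Mgst1 and between 0.00731 and 0.944 for Gstm2. The Gstm1 call was lost without wild type array 1 (adjusted p 0.0551) and without VE array 2 (0.0796) or 3 (0.0723), within 0.012 to 0.155 over the alternatives.

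Liver transcripts were present at high and uneven levels on these arrays. For 4 members the 2 highest signals of all 9 arrays fell on the 2 arrays where the mean of the liver markers was highest. All 10 liver markers, led by Alb, Cyp2e1 and Ttr, stood above the median of every VE and ob/ob vehicle array, and 6 of 10 did so on every wild type array. Their summed signal ran between 18.33 and 20.09 in VE mice, between 18.12 and 19.28 in ob/ob vehicle mice and between 16.95 and 19.94 in wild type mice. The mean of the list was highest on VE array 3 (14.46) and wild type array 3 (14.52), the arrays that also held the 2 highest Gsta3, Gstt1, Mgst3 and Gstp1 signals of all 9. Mgst1 (19.24 and 18.85) and Gsta4 (8.21 and 10.09) were also highest on array 3 within VE and within wild type mice. For them these were not the 2 highest of all 9 arrays. Gstm1, Gstm2 and Gsto1 had their highest VE signal on array 2. Between VE and ob/ob vehicle mice 10 of 10 liver markers had differences above 0, with a median of 0.355 and 0 called. Of all clusters 46.7% lay above 0, with a median of -0.023, and 0.0255% were called. The 10 markers share the same arrays and are not independent measurements. Wild type array 2 had by far the lowest liver mean, 8.0. It also had the lowest Gsta3 (13.27) and Mgst1 (17.81) signals of all 9 arrays, and the highest Gstm2 signal (15.17). Gstt1, Mgst3 and Gstp1 there lay within the range of the other arrays. The liver markers did not move as 1 set. On that array Alb was at 12.51 and Ttr at 6.69, while Cyp2e1, at 16.87, lay above all VE and ob/ob vehicle arrays (12.89 to 15.70). Between ob/ob vehicle and wild type mice 0 of 10 were called higher and 1 lower, beside 9.02% and 5.05% of all clusters. Within ob/ob vehicle mice Gsta3, Gstt1, Mgst3 and Gstp1 did not follow the liver mean. Array 1 had the lowest liver mean of that group, 11.28 beside 12.70 and 12.80. The same array had the group's highest Gstt1, Mgst3 and Gstp1 signals, and also those of Gsta4, Gstm2, Gsto1 and Mgst1. Gsta3 and Gstm1 were highest on array 2. The part of the liver transcripts in the members' signals was not tested.

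**Figure D3:**
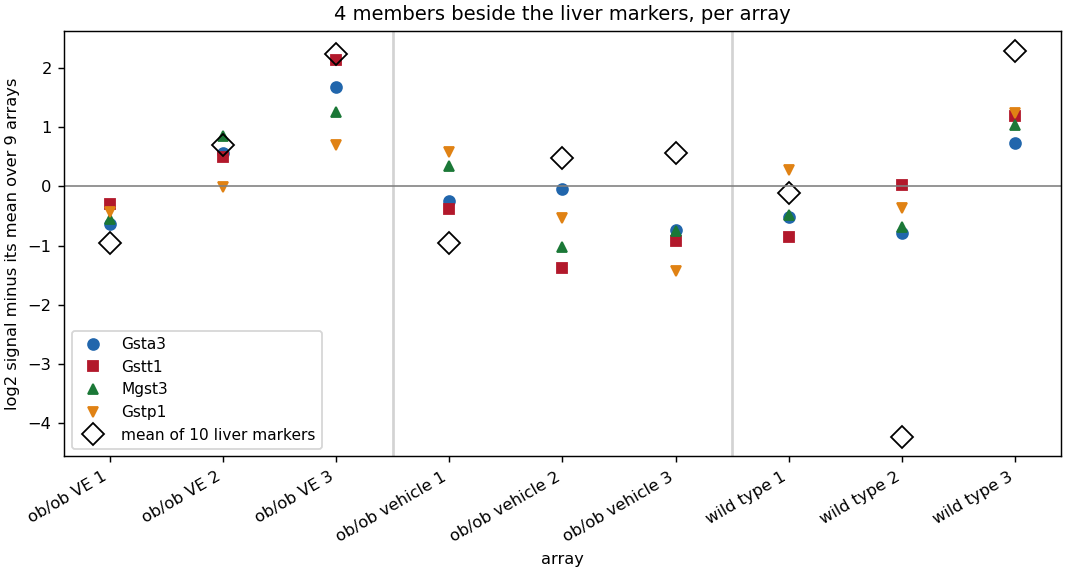
Log2 signal of Gsta3, Gstt1, Mgst3 and Gstp1 and the mean of 10 liver markers on each of the 9 arrays (horizontal axis), each minus its own mean over the arrays. VE array 3 and wild type array 3 are high for all 5, and wild type array 2 is far below the rest for the liver markers only. Within its group, ob/ob vehicle array 1 is lowest for the liver markers and highest for Gstt1, Mgst3 and Gstp1.

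Among the other glutathione transferases 16 of 18 listed genes were measured, and in ob/ob vehicle against wild type mice 2 were called higher and 2 lower (median difference -0.14), beside 9.02% higher and 5.05% lower among all clusters. Hpgds, the sigma class enzyme that makes prostaglandin D in blood-derived cells, gave 12.66, 12.29 and 11.59 in VE mice, 12.16, 12.91 and 12.45 in ob/ob vehicle mice, and 6.31, 6.83 and 7.60 in wild type mice. With a 48.3-fold higher signal in ob/ob vehicle mice (5.59 ± 0.39, adjusted p 2.32e-05) it had the largest increase of the family. Gstm3 also rose, with 10.91, 11.55 and 12.63 in VE mice, 12.12, 12.21 and 11.15 in ob/ob vehicle mice, and 9.16, 9.57 and 8.23 in wild type mice, a 7.16-fold higher signal in ob/ob vehicle mice (2.84 ± 0.49, adjusted p 0.00415). The ob/ob arrays did not overlap the wild type arrays for either gene.

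The other 2 called mu class genes went the opposite way. Gstm5 gave 8.63, 8.16 and 7.84 in VE mice, 8.99, 7.76 and 7.98 in ob/ob vehicle mice, and 11.01, 13.69 and 15.01 in wild type mice (ob/ob vehicle minus wild type -4.99 ± 0.82, adjusted p 0.00304). Gstm7 gave 8.39, 9.08 and 8.67 in VE mice, 8.48, 8.59 and 7.95 in ob/ob vehicle mice, and 9.56, 16.19 and 13.13 in wild type mice (-4.62 ± 1.24, adjusted p 0.0333). Both had wide wild type groups, and the highest array was array 3 for Gstm5 and array 2 for Gstm7. The epithelial markers were also highest in wild type mice. Within that group their summed signal was lowest on array 3 (13.38) and highest on array 2 (16.21). Gstm5 was therefore highest where the epithelial sum was lowest, and Gstm7 was highest where that sum was highest. Both genes were lowest on wild type array 1, which did not have the lowest epithelial sum. The part of epithelial transcripts in the differences of these genes was not tested. The Gstm5 difference was -6.11 without wild type array 1 and -4.11 without wild type array 3, and that of Gstm7 was -6.32 without wild type array 1 and -3.0 without wild type array 2. The Gstm7 call was lost with only the 2 groups fitted (adjusted p 0.0874), with a robust prior (0.0835), and without any 1 of the ob/ob vehicle arrays (0.0833, 0.0901 and 0.0994 for arrays 1, 2 and 3) or of the VE arrays (0.0518, 0.0553 and 0.0529), within a range of 7.1e-05 to 0.0994.

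In the annotation Gstm2 lies between Gstm3 and Gstm1, and Gstm1 between Gstm2 and Gstm4. Gstm3 and Gstm1 were called higher in ob/ob vehicle mice, while Gstm2 between them had a difference below 0 that did not pass, and Gstm4, named after its values were seen, differed by -0.0067 with an adjusted p of 0.995. Likewise Gstp2, the near copy beside Gstp1 and also named after its values were seen, differed by -0.32 (adjusted p 0.747), against -0.85 for Gstp1. These genes are similar in sequence, and how far the probes of one detect transcripts of another was not tested.

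**Figure D4:**
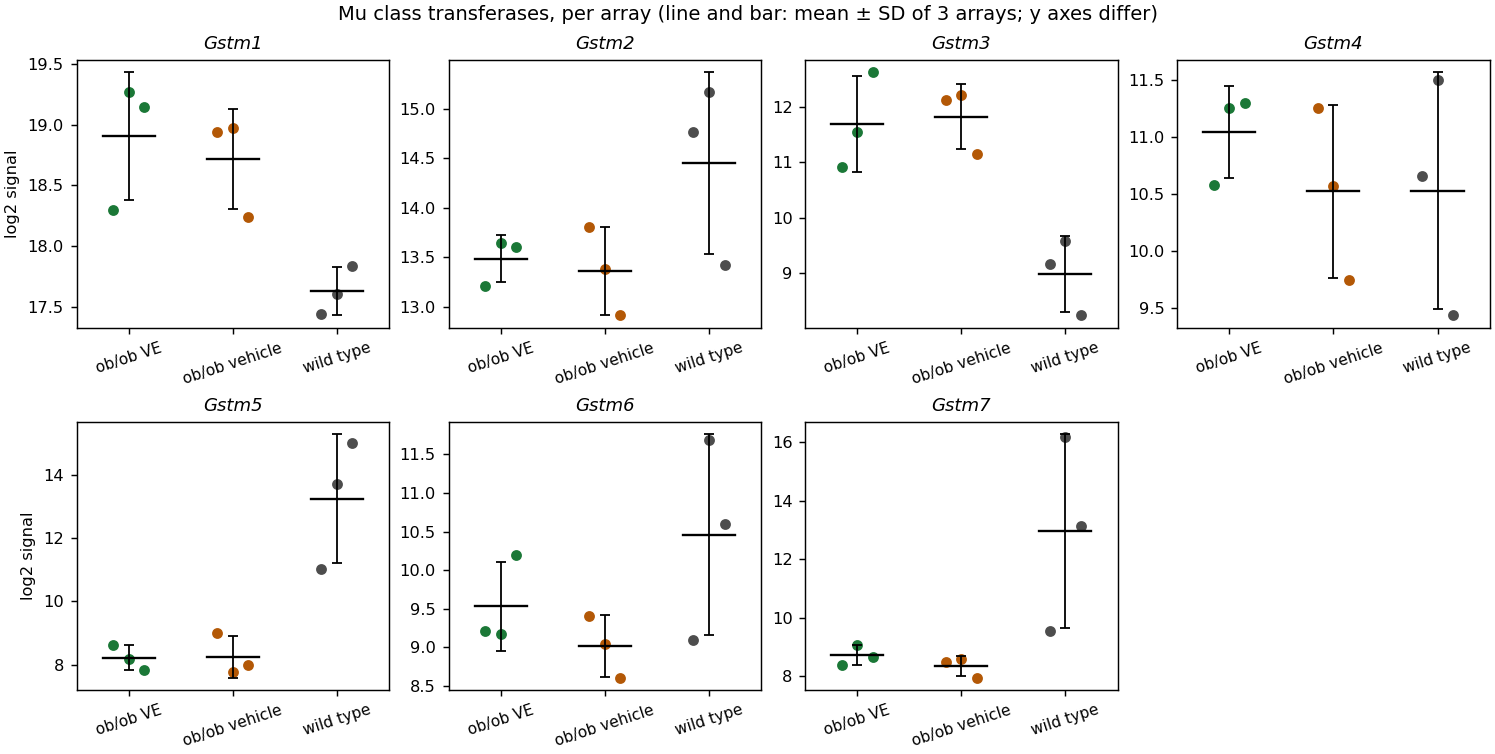
Log2 signal of the 7 mu class genes (vertical axes differ and do not start at 0) on each array of the VE, ob/ob vehicle and wild type groups, with mean ± SD of 3 arrays. Gstm1 and Gstm3 are higher on every ob/ob array than on any wild type array, and Gstm5 and Gstm7 lower.

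Gstk1, the kappa class enzyme of mitochondria and peroxisomes, was singled out after its values were seen. It gave 11.30, 10.96 and 11.44 in VE mice, 9.95, 8.36 and 9.06 in ob/ob vehicle mice, and 8.59, 8.59 and 8.42 in wild type mice. All VE arrays lay above all others. The VE minus ob/ob vehicle difference of 2.11 ± 0.36 (SE), a 4.32-fold higher signal with a 95% interval from 1.31 to 2.91, had the smallest adjusted p of the family in that comparison, 0.142, and did not pass. It passed with array weights (adjusted p 0.0178) and without ob/ob vehicle array 1 (0.0301), and adjusted p over the alternatives reached 0.745. Against wild type mice the VE difference was 2.70 ± 0.36 and passed (adjusted p 0.000788). Hpgds, Gstm3, Mgst2 (1.39, adjusted p 0.021) and Gstz1 (1.42, adjusted p 0.0421) also passed upwards, and Gstm5 and Gstm7 downwards. In that comparison 5 of the 16 measured genes of this list were called higher and 2 lower, beside 12.4% and 7.58% of all clusters. For Gstz1 the lowest VE array was at 15.49 and the highest wild type array at 15.48. The calls of Mgst2 and Gstz1 were not followed through the alternatives. The Gstm7 call of VE against wild type mice (-4.25, adjusted p 0.0368) was lost in 10 of 20 alternatives, among them the fits without any 1 of the ob/ob vehicle or VE arrays (adjusted p 0.0548 to 0.106) and without wild type array 2 (-2.63, 0.0501) or 3 (-4.16, 0.0544), and without wild type array 1 the difference was -5.95.

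The pathway around the transferases was followed with 4 further lists. Of 20 genes of glutathione synthesis and recycling, 4 were called higher and 0 lower in ob/ob vehicle mice against wild type mice, with a median difference of 0.435, beside 9.02% higher and 5.05% lower among all clusters. They include Glrx, a glutaredoxin that removes glutathione from proteins (2.12 ± 0.25, adjusted p 0.000413), and Esd, which hydrolyses S-formylglutathione (1.93 ± 0.34, adjusted p 0.00415). At the lower end were Gpx3, the secreted glutathione peroxidase (-1.67, adjusted p 0.101), and Glo1, which clears methylglyoxal (-0.73, adjusted p 0.0767), and neither passed. Wild type array 2, at 18.66 beside 15.83 and 16.02, carried much of the Gpx3 difference, which was -0.76 without it and passed without wild type array 1 (adjusted p 0.0497) or 3 (0.0441), within 0.0411 to 0.235 over its alternatives.

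Of 15 measured genes of conjugate export and mercapturate formation 3 were higher and 0 lower, against the same 9.02% and 5.05% of all clusters. Anpep, aminopeptidase N, had a difference of 7.13 ± 0.48 (adjusted p 2.23e-05), and Dpep2, a membrane dipeptidase that cleaves cysteinylglycine bonds, had one of 6.00 ± 0.54 (adjusted p 8.9e-05). Both peptidases act on other substrates too. Abcg2, an efflux pump, had a difference of -5.59 that did not pass (adjusted p 0.0511). It rested on wild type arrays 1 and 2 (19.17 and 18.38), since wild type array 3 stood at 10.96 beside 10.32 to 10.88 in ob/ob vehicle mice, and it was -4.09 without wild type array 1, -4.49 without 2 and -8.20 without 3, where it passed (adjusted p 4.02e-07; 4.02e-07 to 0.545 over its alternatives). Nat8, which acetylates cysteine conjugates, had a difference of -0.60 (adjusted p 0.244).

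Among 19 measured aldehyde-clearing enzymes, which share substrates with Gsta4, 4 were higher and 2 lower in ob/ob vehicle mice, with a median of -0.013, while 9.02% of all clusters were higher and 5.05% lower. The 2 lower genes were Akr7a5, a reductase of aldehydes known in the mouse (-1.57 ± 0.25, adjusted p 0.00286), and Cbr1, carbonyl reductase (-1.54 ± 0.40, adjusted p 0.0293). The Cbr1 call was lost without ob/ob vehicle array 2 (adjusted p 0.084) or 3 (0.103), wild type array 1 (0.0838) or 2 (0.0665), or VE array 2 (0.051), within 0.00411 to 0.338 over its alternatives. Akr1b8, an aldose reductase relative (5.19 ± 0.44, adjusted p 6.42e-05), and Aldh3b1, a dehydrogenase of lipid aldehydes (2.37 ± 0.38, adjusted p 0.00252), led the increases. Between VE and ob/ob vehicle mice 0 of 19 were called, beside 0.0255% of all clusters. Of these 19 genes, 16 (84.2%) lay above 0 with a median of 0.38, against 46.7% of all clusters. The share above 0 was 70% for glutathione synthesis and recycling, 53.3% for export and mercapturate formation and 57.1% for NRF2 and classical targets. The genes share the same arrays and are not independent measurements.

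The list of NRF2 and classical targets gave the highest share of calls of these lists. In it 8 of 14 measured genes were higher and 0 lower in ob/ob vehicle mice, with a median of 1.20. Among all clusters 9.02% were higher and 5.05% lower. The share depends on how genes were divided between lists, which were chosen with earlier results known. Gclc, Gclm, Gsr and Slc7a11 were counted under glutathione synthesis and recycling, and none was called (adjusted p 0.92, 0.363, 0.123 and 0.716 in limma). Hmox1, heme oxygenase, differed by 6.91 ± 0.58 (adjusted p 6.04e-05; 6.29 without ob/ob vehicle array 2) and Ftl1, the ferritin light chain, by 3.26 ± 0.35 (adjusted p 0.000273). Nqo1, a quinone reductase (-0.48, adjusted p 0.642), and Keap1, the inhibitor of NRF2 (-0.14, adjusted p 0.768), did not pass, and neither did Nfe2l2, which encodes NRF2 (0.52, adjusted p 0.368). Gsta3 and Mgst1, the 2 members with the response element core in the printed windows, were not called in any comparison of the main fit. Mgst1 did pass the submitters' threshold between VE and wild type mice. The windows span only 300 bases and none was matched for Gsta4. The part of NRF2 in the members' signals was not tested. All of the genes named for these lists missed the threshold between VE and ob/ob vehicle mice, where only 0.0255% of all clusters passed. At the submitters' threshold Ftl1 (0.93, unadjusted p 0.0246 in limma) and Keap1 (0.60, unadjusted p 0.034) passed with higher signal in VE mice. Of all clusters 4.56% passed that threshold.

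**Figure D5:**
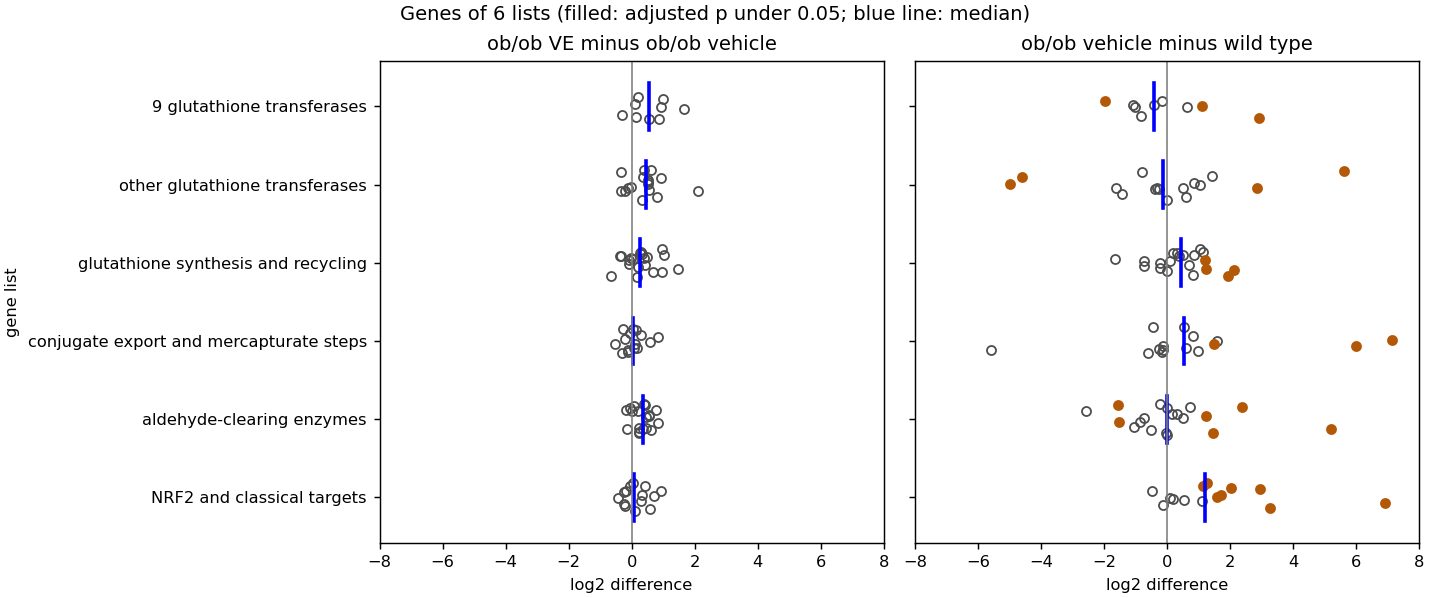
Log2 differences (horizontal axis) of the genes of 6 lists between VE and ob/ob vehicle mice (left) and between ob/ob vehicle and wild type mice (right); points are genes, filled where the adjusted p is under 0.05, and the blue line is the list's median. No gene of these lists is filled on the left, and on the right 8 genes of the NRF2 list are filled, all above 0.

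The clusters whose profiles over the 9 arrays lay nearest to each member were found by the root mean square difference of log2 values after each cluster's own mean was subtracted, as a description without a test. Nearest to Gsto1, whose own profile had a root mean square of 1.65, were Coro1a (0.223), Hspb1 (0.261) and Ftl1 (0.329). For Gsta4 (own 1.06) they were Cfap52 (0.294), Echdc2 (0.312) and Hnrnpa2b1 (0.315). These distances are small beside the members' own variation, but they are the 3 smallest among 19572 named clusters. Small values are therefore partly a result of that choice. Gstm1 (own 0.651) lay nearest to Med27 (0.225), Syne3 (0.228) and Chst11 (0.231), and Gstm2 (own 0.694) to Neu3 (0.208), Atp6v1g3 (0.221) and Arhgef5 (0.23). Gsta3 (own 0.785) lay nearest to Slc47a1 (0.275), Khk (0.279) and Acsm1 (0.292), and Mgst3 (own 0.823) to Ces2a (0.288), Cyp27a1 (0.332) and Amy1 (0.35). Another member appears in 1 of these lists, since Gstt1 (own 1.05) had Asl (0.453), Cebpd (0.486) and Mgst3 (0.508). Gstp1 (own 0.753) lay nearest to Chst1 (0.181), Mapk1ip1 (0.28) and Fmr1nb (0.323). Mgst1 varied least of the members (own 0.439) and lay nearest to Aldoart2 (0.145), Shc3 (0.149) and Map1lc3b (0.154).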

How the data were processed

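The deposited table holds log2 signals, 1 per transcript cluster and array with 2 decimals, which the authors normalised by SST-RMA, per the series' design text, in Transcriptome Analysis Console (4.0.2 there, 4 in the submitters' processing notes). The genome build is not given in the sources used here. Values were used as deposited, with no pseudocount. Of 22206 clusters, 19572 have 1 gene symbol in the platform's annotation, 0 have several, and 2634 have none and were left out.

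The differences come from limma 3.58.1 (R 4.3.3), fitting 3 group means to all 9 arrays with empirical Bayes moderation, whose prior had 4.02 degrees of freedom. Benjamini-Hochberg adjustment ran over 19572 clusters in each comparison, two-sided, with calls at an adjusted p under 0.05. The fit was tested on simulated data. The series' text gives 3 mice per group. Precision is limited by the number of arrays, which carry no read depth; signal over background was not used here.

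Members and lists were chosen with earlier results of these data known. Named were all members, the 2 highest and 2 lowest moderated t of each pathway list between ob/ob vehicle and wild type mice, other transferases called there, 3 markers per list and the nearest profiles; exceptions are stated. Marker lists also covered epididymis and testis (led by Prm2, Prm1 and Adam7) and stroma and endothelium (led by Dcn, Cdh5 and Cd34). Between ob/ob vehicle and wild type mice 0 of 16 and 0 of 11 were called, beside 9.02% higher and 5.05% lower among all clusters. The summed epididymis and testis signal was uneven in wild type mice, at 11.98, 17.51 and 9.28 on arrays 1, 2 and 3. It reached 8.40 to 8.58 in VE mice and 8.61 to 10.06 in ob/ob vehicle mice. 20 alternative settings were run, 9 of them without 1 array.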

Additional observations from a re-analysis of the deposited data

How the results depend on the processing

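Of 540 values (27 member differences in 20 alternatives), 502 kept their direction and side of the threshold, 16 lost the call, 10 gained it and 12 turned in sign. Many settings, such as another prior, the replicate block or leaving out an array of the third group, cannot change the difference itself. Most of the differences were also not called in the main fit. The 502 is therefore not a measure of how stable the directions are. Gsta4 and Gsto1 kept their calls against wild type in all 20 alternatives, for ob/ob vehicle mice (Gsta4 -2.21 to -1.87, Gsto1 2.65 to 3.10) and for VE mice (-2.60 to -2.0 and 3.60 to 3.94). The members called between ob/ob vehicle and wild type mice numbered 3, and 2 to 5 without 1 array; between VE and wild type mice 3, 2 to 5 without 1 array and 5 at the submitters' threshold (unadjusted p under 0.05, fold over 1.1); both counts were 5 without wild type array 3. Between VE and ob/ob vehicle mice they numbered 0, also without any 1 array (0 to 0), and 2 at the submitters' threshold. Clusters called between ob/ob vehicle and wild type mice numbered 2754, 1814 with only those groups, 5555 at the submitters' threshold and 1641 to 3545 without 1 array (1641 without ob/ob vehicle array 2). Between VE and ob/ob vehicle mice they numbered 5, 19 with only those groups, 12 with a robust prior, 41 with array weights, 893 at the submitters' threshold, 19 without wild type arrays 1 and 2, and 0 to 21 without 1 array (0 without VE array 1, 2 or 3 and without ob/ob vehicle array 2, 1 without ob/ob vehicle array 3, 9 without wild type array 3, 21 without ob/ob vehicle array 1). Between VE and wild type mice they numbered 3920, 6630 at the submitters' threshold and 2314 to 4706 without 1 array (2314 without VE array 1, 2342 without VE array 2). With the replicate number as a block the clusters called numbered 2572, 0 and 3731 in these 3 comparisons; same-numbered arrays' deviations correlated between -0.0635 and 0.181, so the numbers were not taken to pair the mice, and the Gstm1 call between ob/ob vehicle and wild type mice was the only member call the block ended (adjusted p 0.0656, within 0.032 to 0.272 over its alternatives). Gstm2 between VE and ob/ob vehicle mice turned to -0.0098 with quantile normalization, and without wild type arrays 1 and 2, which leaves 1 wild type array assumed to vary like the other groups, the VE minus wild type differences turned to -0.19 for Gsta3, 0.063 for Gstm2, -0.41 for Gstt1 and -0.51 for Mgst3. Leaving out 1 array turned the sign for Gsta3 (-0.45 to 0.30) and Mgst3 (-0.84 to 0.11) between ob/ob vehicle and wild type mice, Gstm1 (-0.052 to 0.49) and Gstm2 (-0.11 to 0.34) between VE and ob/ob vehicle mice, and Gstp1 (-0.68 to 0.13) and Gstt1 (-0.02 to 1.19) between VE and wild type mice, none of them a called difference. Fewer arrays enter the fits that leave arrays out; the cause of the other changes was not tested. Each member has 1 cluster, so the alternative with every cluster of a member was not run.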
